A study of Mus with 6 samples.

Results

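GADD45 stress sensors, inhibitors of cyclin-dependent kinases (CDKs), D-type cyclins, Myc and stress-responsive polo-like kinases were followed as a set of 10 genes through the first hours of lens injury. The set was fixed by gene name and Ensembl identifier, as Gadd45a, Gadd45b, Gadd45g, Cdkn1a, Cdkn1b, Ccnd1, Ccnd2, Myc, Plk2 and Plk3, and it makes up 10 of the 55421 genes counted. All 10 passed the filter on low counts that left 16810 genes to be tested. The libraries came from wildtype C57BL/6 mice, and the fiber cell mass of the lens was removed to model cataract surgery, which leaves lens epithelial cells (LECs) on the capsule. Capsules were taken at 0 h or at 6 h post cataract surgery (PCS), with 3 libraries per time point and a pool of 5 capsules in each library. The labels put the age of the mice at 2 months, whereas the methods describe older mice of both sexes. One eye of a mouse was operated 6 h before the other, so the time points can share mice, and the labels do not say which pools do. The 0 h capsules were thus also operated on.

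D-type cyclins switch on CDK4 and CDK6, which inactivate the retinoblastoma protein and let a cell pass from G1 into S phase. The products of Cdkn1a (p21) and Cdkn1b (p27) bind and restrain cyclin-CDK complexes, p21 as a classical target of p53 and of stress kinases, and p27 as a keeper of quiescence. GADD45 proteins are small stress sensors that bind PCNA, p21 and the kinase MAP3K4, through which they can switch on p38 and JNK. Myc is an immediate early transcription factor of growth and ribosome production, and Plk2 and Plk3 are polo-like kinases that, unlike Plk1, respond to mitogens and stress outside mitosis. The central epithelium of the adult lens is largely quiescent, and LECs left on the capsule can re-enter the cell cycle after surgery.

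Read pairs counted on genes numbered 18039974 to 24701039 per library, and each value of the 10 genes rests on at least 54 counts. The authors deposited raw counts, which were scaled here with TMM factors and compared with the quasi-likelihood test of edgeR. Levels are CPM values on the TMM scale, where CPM is a gene's count as parts of 1000000 counts of its library, and a differentially expressed gene (DEG) needed a Benjamini-Hochberg adjusted p of at most 0.05 over all tested genes and a fold change above 2. The defining LEC genes Pax6 and Foxe3 were present at 573 ± 90.3 and 86.9 ± 10.2 CPM at 0 h PCS and at 402 ± 104 and 106 ± 6.16 CPM at 6 h PCS (SD, n = 3), and the lens epithelial genes that could be named (7 of 12) summed to 1905 to 2193 CPM in the 0 h libraries and 1552 to 1743 CPM in the 6 h libraries. Of these 7 genes, 0 were DEGs by edgeR, DESeq2 or the edgeR exact test, 5 were lower and 0 higher at an unadjusted p below 0.05, and Prox1, Pdgfra, Sox2 and Mab21l1 met the limit on adjusted p with log2 fold changes from −0.75 to −0.53. Genes of other cells were also counted. Red cell genes (5 of 5) summed to 7.94 to 19.5 CPM in the 0 h libraries and 73.5 to 133 CPM in the 6 h libraries, and pigment cell genes (4 of 6) to 51.4 to 209 CPM and to 77.4 to 1965 CPM. All 5 red cell genes were upregulated DEGs, with a median log2 fold change of 3.03. Leukocyte genes (6 of 12) summed to 13.5 to 22.6 and 16.8 to 32.3 CPM, endothelial genes (4 of 6) to 4.10 to 26.3 and 20.0 to 36.9 CPM, and stromal genes (3 of 6) to 82.3 to 116 and 90.6 to 201 CPM. Of the 6 leukocyte genes 1 was a DEG, the macrophage marker Cd68, which went from 1.03 ± 0.451 CPM up to 5.99 ± 2.92 CPM (SD, n = 3, edgeR adjusted p = 0.0129), while the other leukocyte genes, Itgam, Ptprc, Adgre1, Csf1r and Lyz2, had log2 fold changes of 1.502, 1.29, 0.10, −0.11 and −0.16 and were not called. Of the 4 endothelial genes, 0 were DEGs by the quasi-likelihood test (2 higher at an unadjusted p below 0.05), and DESeq2 and the edgeR exact test each called 2 upregulated. Corneal epithelial genes (3 of 5) summed to 348 to 495 and 318 to 451 CPM, but they moved apart. The keratin genes Krt12 and Krt5 were at 2.97 ± 3.54 and 3.44 ± 3.82 CPM at the start and at 55.4 ± 10.8 and 31.5 ± 6.71 CPM later (SD, n = 3), higher in every 6 h library, while Aldh3a1, which made up most of the sum, was at 436 ± 77.3 and 279 ± 60.1 CPM (SD, n = 3). None of these 3 was a DEG by the quasi-likelihood test (edgeR adjusted p = 0.0792, 0.146 and 0.0725), whereas DESeq2 and the edgeR exact test each called 2 of them upregulated. Lens fiber genes (2 of 13) had sums of 1326 to 1814 and 1170 to 1600 CPM. Each of these counted marker genes had at least 1 count in every library. In whole capsules, fewer cells of a type and less RNA per cell cannot be told apart.

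At 6 h PCS, stress sensors, p21 and both polo-like kinases of the set had risen several fold, while the D-type cyclins were not called in either direction. Of the 10 genes, 6 were upregulated DEGs, namely Gadd45a, Gadd45b, Gadd45g, Cdkn1a, Plk2 and Plk3, whereas 4.53% of all tested genes were upregulated DEGs. None of the 10 was a downregulated DEG (0 of 10 by edgeR, DESeq2 and the edgeR exact test, and 1 of 10 lower at an unadjusted p below 0.05), beside 0.821% of all tested genes. On adjusted p alone, 6 of the 10 were higher at 6 h PCS (6.31% of all tested genes) and 1 was lower (2.02%). Myc, Cdkn1b, Ccnd1 and Ccnd2 were the 4 genes not called. The 3 libraries at 6 h PCS all lay above the 3 at 0 h PCS in 7 genes, where 15.3% of tested genes did so, and all below them in Cdkn1b, where 15.3% did. The median log2 fold change of the 10 genes was 2.28, against −0.0030 over all tested genes. Over all genes, 762 DEGs were upregulated and 138 downregulated, a total of 900 that fell to 550 without 0 h replicate 1. Downregulated DEGs numbered 41 in that fit, 52 without 0 h replicate 3 and 97 to 138 in the other fits without 1 library. Scaled on library size alone, 572 were upregulated and 627 downregulated, and the median over all genes moved to −0.32. Directions below are relative to the TMM scale, and the same 6 genes of the set were upregulated DEGs under library size scaling.

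**Figure D1:**
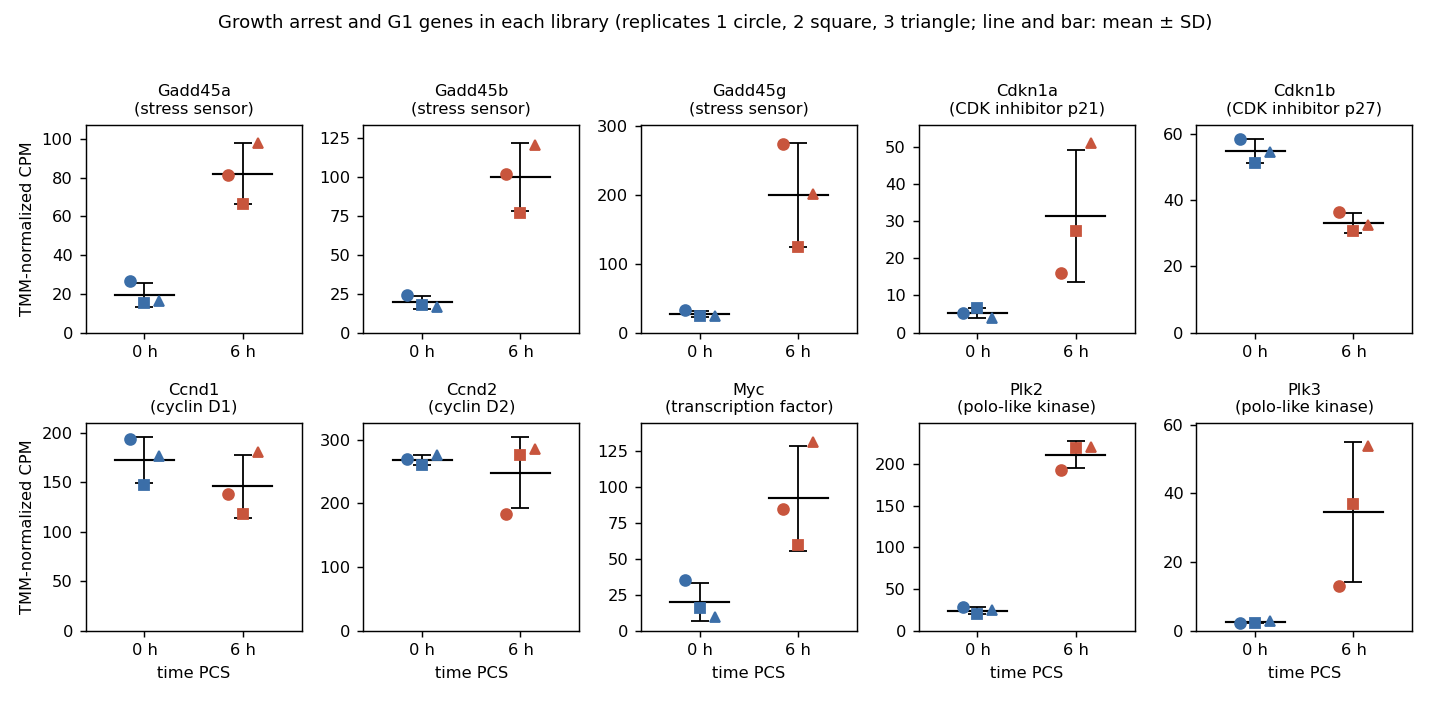
TMM-normalized CPM (vertical axes from 0, each gene on its own scale) of the 10 genes in every library at 0 h and 6 h PCS, with replicates 1, 2 and 3 as circle, square and triangle and with the mean ± SD as line and bar. The points of the 2 time points do not overlap for the GADD45 genes, Cdkn1a, Cdkn1b, Myc, Plk2 and Plk3, and they overlap for Ccnd1 and Ccnd2.

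**Figure D2:**
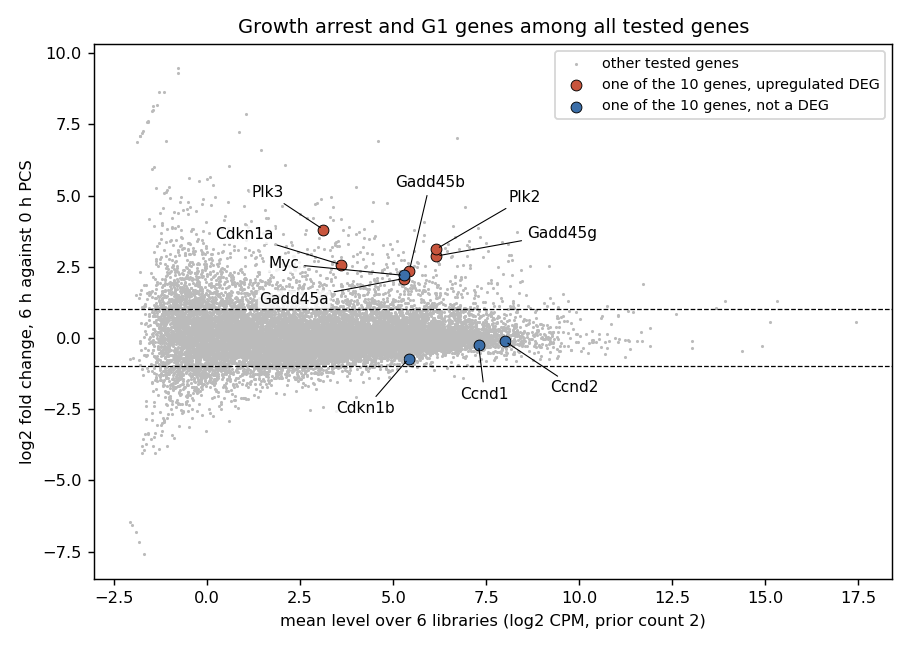
Log2 fold change at 6 h against 0 h PCS (vertical) over the mean level in log2 CPM (horizontal) for all 16810 tested genes in grey, with the 10 genes marked red where they were upregulated DEGs and blue where they were not. Dashed lines mark the 2-fold limits, and Plk3 with 3.81 and Plk2 with 3.12 lie highest among the marked genes.

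All 3 GADD45 genes rose at 6 h PCS, between 4.25-fold for Gadd45a and 7.34-fold for Gadd45g. Gadd45a (ENSMUSG00000036390, chromosome 6 of GRCm38.p6, 67035096 to 67037407), a p53 target that also responds to other stresses, was at 26.5, 15.2 and 16.1 CPM in the 0 h libraries and at 81.4, 66.6 and 98.0 CPM in the 6 h libraries. The groups did not overlap, and 0 h replicate 1 was the highest of the 0 h libraries. Its log2 fold change was 2.09 (SE 0.240, edgeR adjusted p = 0.00097). Gadd45b (ENSMUSG00000015312, chromosome 10, 80930091 to 80932204), the family member known as a target of NF-kB and TGF-beta, was at 24.1, 17.5 and 16.2 CPM at 0 h PCS and at 102, 76.7 and 120 CPM at 6 h PCS. It showed the same order of libraries as Gadd45a at 6 h PCS, with replicate 3 the highest and replicate 2 the lowest. The log2 fold change of Gadd45b was 2.37 (SE 0.215, edgeR adjusted p = 0.000288). Gadd45g (ENSMUSG00000021453, chromosome 13, 51846675 to 51848475), first described as a cytokine response gene, was at 32.7, 24.3 and 24.5 CPM at 0 h PCS and at 273, 124 and 201 CPM at 6 h PCS. Here 6 h replicate 1 was the highest library, and the lowest of the 6 h libraries was still several fold above every 0 h library. Gadd45g had a log2 fold change of 2.88 (SE 0.287, edgeR adjusted p = 0.000769). Each of the 3 was a DEG in all 10 other settings of the test and in all 6 fits that left out a library. A long noncoding RNA, E230016M11Rik, overlaps the gene span of Gadd45a, introns included, over 809 bases in the annotation. Exons were not compared and the strand setting of the counting is not given in the sources used here. It is thus uncertain whether counted reads are affected.

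Per exon length, Gadd45g was the most abundant of the family at both time points. Counts per kilobase of exon and per 1000000 counted pairs (FPKM) were 25.7 ± 4.01 for Gadd45g, 13.5 ± 2.67 for Gadd45b and 12.2 ± 3.71 for Gadd45a at 0 h PCS (SD, n = 3). At 6 h PCS they were 149 ± 44.2, 55.7 ± 9.64 and 41.4 ± 6.35 FPKM (SD, n = 3). The FPKM ranges of Gadd45b and Gadd45a overlapped at both time points, although within each of the 6 libraries Gadd45b was the higher. Their ratio per exon length was 1.01, 1.277 and 1.12 at 0 h PCS and 1.39, 1.279 and 1.36 at 6 h PCS, so the groups of ratios nearly touched (exact permutation test, two-sided p = 0.10, the smallest possible here). The summed level of the family was 63.3, 44.8 and 46.1 FPKM in the 0 h libraries and 283, 189 and 265 FPKM in the 6 h libraries. Gadd45g made up 50.4% ± 2.13 of the summed FPKM at 0 h PCS and 59.9% ± 7.003 at 6 h PCS (SD, n = 3), and Gadd45a 23.3% ± 2.32 and 17.2% ± 3.30. The ratio of Gadd45g to Gadd45a per exon length, which no scaling of the libraries can change, was 1.85, 2.40 and 2.28 at 0 h PCS and 5.05, 2.79 and 3.09 at 6 h PCS. The 6 h ratios all lay above the 0 h ratios (exact permutation test, two-sided p = 0.10, n = 3 per group, the smallest p that 3 libraries against 3 allow).

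The CDK inhibitors p21 and p27 moved apart, with Cdkn1a 5.94-fold higher at 6 h PCS and Cdkn1b lower in all 3 libraries. Cdkn1a (ENSMUSG00000023067, chromosome 17, 29090979 to 29100722) had 5.38, 6.49 and 3.97 CPM at 0 h PCS and 15.98, 27.4 and 50.9 CPM at 6 h PCS, from 92 to 178 counts and from 238 to 845 counts. The groups did not overlap, but the 6 h libraries spread more than 3-fold, with replicate 1 the lowest and replicate 3 the highest. The log2 fold change of Cdkn1a was 2.57 (SE 0.417, edgeR adjusted p = 0.00873), and without 0 h replicate 1 the adjusted p was 0.0508, just past the limit. Without 6 h replicate 3, the library with the highest Cdkn1a and pigment gene levels, its log2 fold change was 2.04 (edgeR adjusted p = 0.00592). Cdkn1b (ENSMUSG00000003031, chromosome 6, 134920401 to 134925525) had 58.4, 51.3 and 54.7 CPM at 0 h PCS and 36.5, 30.6 and 32.4 CPM at 6 h PCS. It was the least variable of the 10 genes at 6 h PCS after Plk2, with an SD of 9.10% of the mean. Its log2 fold change of −0.72 (SE 0.140, edgeR adjusted p = 0.0124) met the limit on adjusted p while its fold change of 1.65 stayed under 2. Without 0 h replicate 1 the adjusted p was 0.0757. When libraries were scaled by size alone, the log2 fold change of Cdkn1b was −1.05 and it became a downregulated DEG.

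Within each library the balance of both inhibitors shifted towards Cdkn1a. The ratio of Cdkn1a to Cdkn1b per exon length was 0.118, 0.162 and 0.0930 at 0 h PCS and 0.561, 1.15 and 2.01 at 6 h PCS. Cdkn1a was thus below Cdkn1b in every 0 h library and in 6 h replicate 1, and above it in the other 6 h libraries. The means were 0.124 ± 0.0349 and 1.24 ± 0.730 (SD, n = 3), a difference of 3.17 in the mean log2 ratio that no library scaling can change (exact permutation test, two-sided p = 0.10, the smallest that 3 libraries against 3 allow). In FPKM, Cdkn1b fell by 6.92, from 13.4 ± 0.789 to 6.50 ± 0.231, while Cdkn1a went from 1.65 ± 0.375 to 7.96 ± 4.43 (SD, n = 3). On the TMM effective library sizes, Cdkn1b was at 12.0 FPKM at 0 h PCS and 7.29 FPKM at 6 h PCS. At 6 h PCS the difference between the mean FPKM of Cdkn1a and Cdkn1b was smaller than the SD of Cdkn1a.

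**Figure D3:**
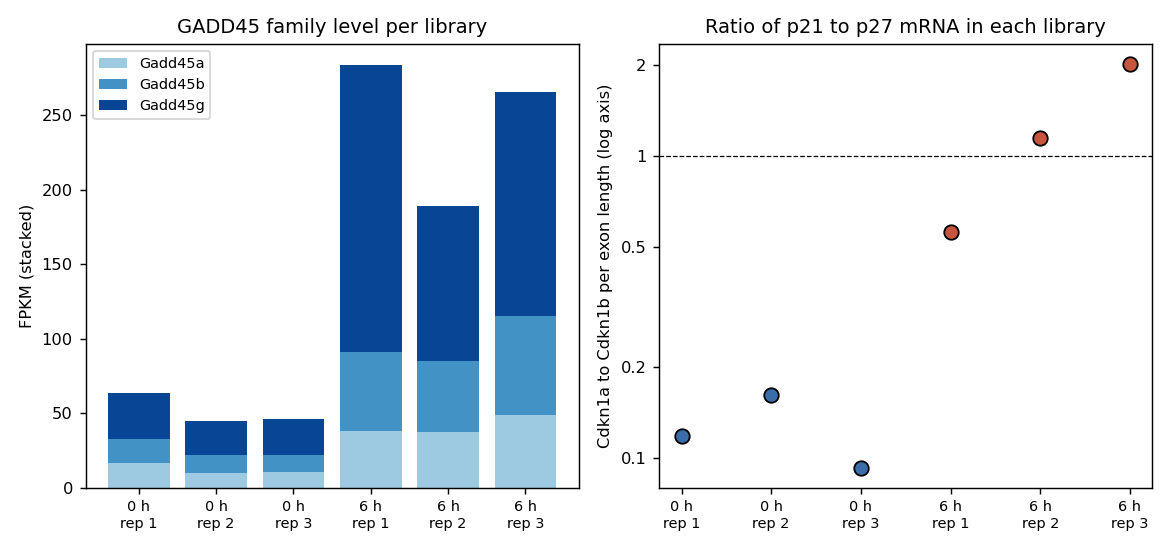
Left, FPKM of Gadd45a, Gadd45b and Gadd45g stacked for each library, with sums of 44.8 to 63.3 in the 0 h libraries and 189 to 283 in the 6 h libraries. Right, the ratio of Cdkn1a to Cdkn1b per exon length in each library on a log axis, with blue for 0 h and red for 6 h PCS and a dashed line at a ratio of 1, which only 6 h replicates 2 and 3 exceed.

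The D-type cyclins kept high counts at both time points, and no change of either was detected on the TMM scale. Ccnd1 (ENSMUSG00000070348, chromosome 7, 144929931 to 144939831), cyclin D1, had 193, 147 and 177 CPM at 0 h PCS and 138, 118 and 181 CPM at 6 h PCS. The groups overlapped, since 6 h replicate 3 lay above 2 of the 0 h libraries. Its log2 fold change was −0.24, with a 95% interval from −0.64 to 0.16 (edgeR adjusted p = 0.463). Ccnd2 (ENSMUSG00000000184, chromosome 6, 127125162 to 127152188), cyclin D2, had 269, 260.4 and 276 CPM at 0 h PCS and 183.7, 276 and 286 CPM at 6 h PCS. Only 6 h replicate 1 was low, and the other 6 h libraries lay within or above the 0 h range. That library also had the fewest gene counts (18039974), the smallest TMM factor (0.827) and the largest share of counts on its top gene (23.3%). Their part in its levels was not tested. The log2 fold change of Ccnd2 was −0.11, with a 95% interval from −0.50 to 0.28 (edgeR adjusted p = 0.747), and without 6 h replicate 1 it turned to 0.063. Both intervals leave out a 2-fold change in either direction on the TMM scale. Under library size scaling the values were −0.57 for Ccnd1 and −0.41 for Ccnd2, and neither was called. The adjusted p of Ccnd1 was then just past the limit (edgeR adjusted p = 0.0504). In CPM, Ccnd1 stood at the 96.7 and Ccnd2 at the 98.2 percentile of tested genes at 0 h PCS, and at the 94.8 and 97.4 percentile at 6 h PCS. The count ratio of Ccnd1 to Ccnd2 ranged from 0.565 to 0.718 in the 0 h libraries and from 0.428 to 0.751 in the 6 h libraries (exact permutation test, two-sided p = 0.80). Exon lengths of both cyclins were not at hand, so the ratio is one of counts and not of transcripts. By gene spans, introns included, a neighbouring protein-coding gene lies over 818 bases of Ccnd1 and the noncoding RNA 9330179D12Rik over 2800 bases of Ccnd2. Exons were not compared, so it is uncertain whether counted reads of both are affected.

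Myc (ENSMUSG00000022346, chromosome 15, 61985341 to 61990361) was higher in all 6 h libraries but did not pass the test. Its level was 35.0, 15.7 and 9.58 CPM at 0 h PCS and 85.1, 59.9 and 132 CPM at 6 h PCS. The groups were separated, and the spread between the 0 h libraries, with an SD of 66.1% of the mean, was the widest of the 10 genes at that time point. The log2 fold change was 2.20 with a 95% interval from 0.78 to 3.61 (SE 0.568, edgeR adjusted p = 0.0834). Without 0 h replicate 1, the library with the highest Myc level at 0 h PCS, it was 2.87 (edgeR adjusted p = 0.0102) and Myc was a DEG. DESeq2 (adjusted p = 3.12e-06), the edgeR exact test (0.00236) and edgeR without robust estimation (0.0209) also called Myc. In FPKM, Myc was at 8.16 ± 5.24 at 0 h PCS and at 30.0 ± 10.9 at 6 h PCS (SD, n = 3). The ratio of Myc to Cdkn1a per exon length ranged from 3.16 to 8.52 in the 0 h libraries and from 2.86 to 6.97 in the 6 h libraries, ranges that overlap (exact permutation test, two-sided p = 0.70).

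Plk3 had the largest fold change of the 10 genes and Plk2 the next, although without 6 h replicate 2 Gadd45g, with a log2 fold change of 3.11, passed Plk2 with 3.08. Plk2 (ENSMUSG00000021701, chromosome 13, 110395044 to 110400844), a serum-inducible kinase of centriole duplication and of stress checkpoints, was at 27.97, 20.1 and 24.6 CPM at 0 h PCS and at 192, 219 and 221 CPM at 6 h PCS. The 6 h libraries lay close together, with an SD of 7.64% of the mean, and far above the 0 h libraries. Its log2 fold change was 3.12 (SE 0.163, edgeR adjusted p = 3.24e-05), an 8.70-fold rise, and by p-value Plk2 ranked 2 among the 16810 tested genes. Plk3 (ENSMUSG00000028680, chromosome 4, 117128655 to 117133963), a kinase of the DNA damage and stress response, was at 2.32, 2.37 and 2.72 CPM at 0 h PCS and at 13.1, 36.9 and 53.7 CPM at 6 h PCS. Its 0 h libraries agreed closely, whereas the 6 h libraries spread about 4-fold, in the same order as those of Cdkn1a. The log2 fold change of Plk3 was 3.81 (SE 0.502, edgeR adjusted p = 0.00469), a 13.98-fold rise. It ranged from 3.34 without 6 h replicate 3 to 4.19 without 6 h replicate 1, and Plk2 and Plk3 were DEGs in all 6 fits without 1 library. A neighbouring gene overlaps the gene span of Plk3 over 84 bases. The ratio of Plk3 to Plk2 per exon length was 0.147, 0.209 and 0.196 at 0 h PCS and 0.121, 0.298 and 0.432 at 6 h PCS, so Plk2 was the more abundant in every library and the ranges overlapped. Plk4, the centriole kinase of the same family, was at 8.26 ± 0.581 CPM before and 6.92 ± 1.602 CPM after (SD, n = 3) and was not called, with a log2 fold change of −0.26 (edgeR adjusted p = 0.606).

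**Figure D4:**
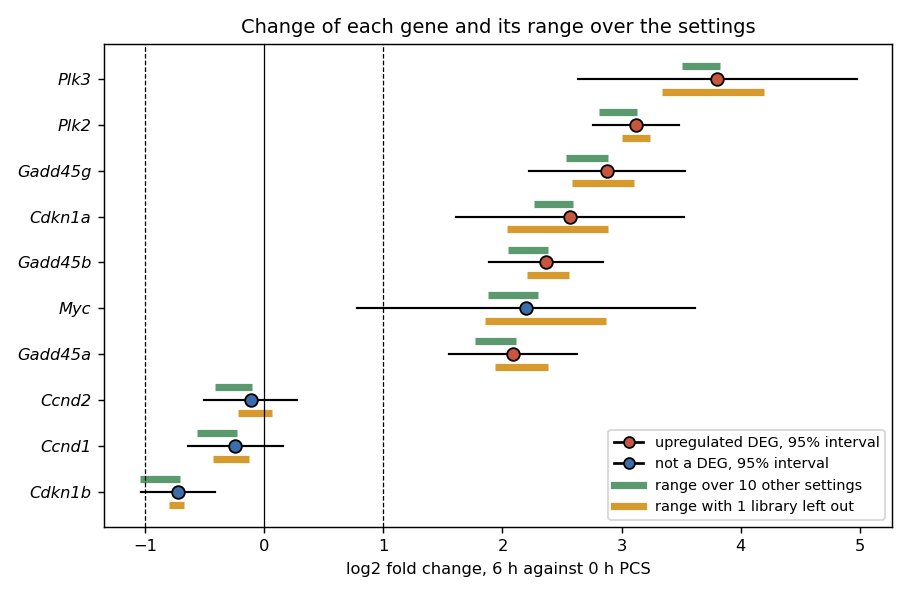
Log2 fold change (horizontal) of each of the 10 genes with its 95% interval in black, the range over 10 other settings of the test in green and the range over 6 fits with 1 library left out in orange. Points are red for upregulated DEGs and blue for the others, and the 95% intervals of Ccnd1 and Ccnd2 and the orange range of Ccnd2, from −0.23 to 0.063, cross 0.

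At 0 h PCS the order of the 8 genes with an exon length was Gadd45g, Gadd45b, Cdkn1b, Gadd45a, Myc, Plk2, Cdkn1a and Plk3 in mean FPKM. Gadd45b, Cdkn1b and Gadd45a, with means between 12.2 and 13.5 FPKM, had overlapping ranges, as did Myc and Plk2, with 8.16 ± 5.24 and 6.01 ± 0.928 FPKM (SD, n = 3). At 6 h PCS the order was Gadd45g, Gadd45b, Plk2, Gadd45a, Myc, Plk3, Cdkn1a and Cdkn1b. Plk2 at 42.3 ± 6.51 FPKM and Gadd45a at 41.4 ± 6.35 FPKM had overlapping ranges and changed order between libraries. The ranges of Plk3 at 12.4 ± 7.37 FPKM and Cdkn1a at 7.96 ± 4.43 FPKM (SD, n = 3) also overlapped, but Plk3 was the higher in each of the 3 libraries at 6 h PCS. All 6 DEGs of the set also met the study's filter for biological significance, which asks that one of the means exceed 2 FPKM and that the means differ by more than 2 FPKM.

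Single libraries recurred as the highest. At 0 h PCS, replicate 1 held the highest TMM-normalized level for 7 of the 10 genes (70%), where it did so for 30.7% of all tested genes. At 6 h PCS, replicate 3 was the highest library for 8 of the 10 genes (80%, beside 34.1% of all tested genes), and Gadd45g and Cdkn1b were the exceptions, with replicate 1 the highest. Pigment cell genes were also highest in these libraries, with 209, 63.8 and 51.4 CPM in 0 h replicates 1, 2 and 3 and 77.4, 456 and 1965 CPM at 6 h PCS. At 6 h PCS this was the order of libraries for Cdkn1a, Plk2, Plk3 and Ccnd2 but not for the other genes of the set. At 0 h PCS it was the order for Gadd45b and Myc alone. The part of pigment cells in the levels of the 10 genes was not tested. Red cell genes and the corneal keratin genes Krt12 and Krt5 were higher in every 6 h library, and their part was not tested either. The tested gene outside the set with the most similar pattern over the 6 libraries, by Pearson's r of log2 CPM, was Atf4 for Gadd45a (r = 0.998), Akt2 for Gadd45b, Rapgef6 for Gadd45g, Fnip2 for Cdkn1a and Map7d1 for Plk2, and an unnamed gene (ENSMUSG00000038127) for Plk3. These values are a description of 6 libraries that fall into 2 time points, and no p is given.

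Genes around the set were taken from lists of cell cycle, p53, MYC, stress and quiescence genes, of which only a part could be named, and the names at hand lean towards changed genes. In the G1/S list, 5 of 22 genes could be tested, 1 was an upregulated DEG (4.53% of all tested genes) and 1 a downregulated DEG (0.821%), and the median log2 fold change was −0.79. E2f8, an atypical E2F that represses E2F targets, rose from 1.08 ± 0.676 to 7.57 ± 3.58 CPM (SD, n = 3; log2 fold change 2.81, edgeR adjusted p = 0.0102). Cdc25a, the phosphatase that activates CDK2 at the G1/S border, fell from 6.45 ± 0.275 to 2.68 ± 0.340 CPM (SD, n = 3), a change of −1.27 on the log2 scale (edgeR adjusted p = 0.031). E2f8 was no DEG without 0 h replicate 1, and Cdc25a was called in none of the 6 fits without 1 library. Over these fits the log2 fold change of E2f8 ranged from 2.35 to 3.45. The CDK inhibitor Cdkn2c, the only one of 6 in its list that could be tested, was at 6.57 ± 1.54 and 5.92 ± 1.11 CPM (SD, n = 3), with no call (log2 fold change −0.15, edgeR adjusted p = 0.809), and the value was 0.01 without 0 h replicate 1. Among genes of S, G2 and M phase, 6 of 18 could be tested, too few to read a count of DEGs from when 5.35% of all tested genes were DEGs, and 0 were DEGs by edgeR, DESeq2 or the edgeR exact test, with 1 lower and 0 higher at an unadjusted p below 0.05. Their median log2 fold change was −0.37, against −0.0030 over all tested genes.

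The p53 list had 13 of 29 genes tested, of which 3 were upregulated and 1 was a downregulated DEG (5.35% of all tested genes were DEGs), with a median log2 fold change of 0.54. Of the 13 genes, 6 were higher and 3 lower in all 6 h libraries than in all 0 h libraries (15.3% of all tested genes in each direction). Sfn, which encodes the G2 arrest factor 14-3-3 sigma, rose from 7.35 ± 1.18 to 35.6 ± 5.47 CPM (SD, n = 3), a change of 2.28 on the log2 scale (edgeR adjusted p = 0.000267). The corneal keratin genes Krt12 and Krt5 were also higher in every 6 h library. A part of corneal cells in the Sfn level was not tested. The death receptor gene Fas rose from 11.8 ± 4.42 to 39.3 ± 14.7 CPM and the stress gene Sesn2 from 2.19 ± 0.511 to 6.10 ± 1.43 CPM (SD, n = 3), with log2 fold changes of 1.73 and 1.47. Trp53inp1, a p53-induced nuclear protein gene, fell from 33.4 ± 4.32 to 12.5 ± 2.11 CPM (SD, n = 3), a change of −1.41 on the log2 scale (edgeR adjusted p = 0.00212). Sfn and Trp53inp1 were DEGs in all 6 fits without 1 library, Fas in 3 of 6 and Sesn2 in 2 of 6. Leaving out 0 h replicate 1 or 6 h replicate 3 ended the calls of both Fas and Sesn2, as did 6 h replicate 1 for Fas and 0 h replicate 3, 6 h replicate 2 or library size scaling for Sesn2. Mdm2, the ubiquitin ligase of p53 and itself a p53 target, was at 38.7 ± 4.75 and 56.1 ± 6.81 CPM (SD, n = 3), with a log2 fold change of 0.54 that was not called (edgeR adjusted p = 0.0633).

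In the MYC network list, 9 of 16 genes could be tested. Mycn, the paralog of Myc, was the one DEG (5.35% of all tested genes were DEGs), and it fell in the same libraries in which Myc was higher, from 27.2 ± 2.86 to 11.2 ± 1.29 CPM (SD, n = 3; log2 fold change −1.27, edgeR adjusted p = 0.00272). Of the 9 genes, 4 were higher and 4 lower in all 6 h libraries than in all 0 h libraries (15.3% of all tested genes in each direction), and the median log2 fold change of the list was −0.03. Under library size scaling 2 of the 9 were DEGs. Of 16 genes listed as MYC targets, 8 could be tested, 2 were upregulated DEGs (4.53% of all tested genes) and 0 downregulated (0.821% of all tested genes, and in the list 0 by DESeq2 or the edgeR exact test and 0 lower at an unadjusted p below 0.05), with a median log2 fold change of 0.81. Odc1, the rate-limiting enzyme of polyamine synthesis, rose from 152 ± 14.7 to 397 ± 164 CPM and the nucleolar gene Nop58 from 39.95 ± 0.884 to 101.2 ± 17.4 CPM (SD, n = 3), with log2 fold changes of 1.39 and 1.34. Both were DEGs in all 6 fits without 1 library.

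Of the other GADD and stress genes, 7 of 10 could be tested, 3 were upregulated DEGs (4.53% of all tested genes) and 1 was downregulated (0.821%), with a median log2 fold change of 1.06. Ppp1r15a (GADD34), which ends the block on translation in the stress response, rose from 57.5 ± 19.3 to 240.2 ± 75.3 CPM (SD, n = 3), a change of 2.06 on the log2 scale (edgeR adjusted p = 0.00443). Atf4, the transcription factor of that response, and the chaperone gene Hspa5 rose by log2 fold changes of 1.10 and 1.06 but were no DEGs under library size scaling (0.79 and 0.75), and Hspa5 also lost its call without 6 h replicate 2 or 6 h replicate 3. Ddit4, an inhibitor of mTORC1, fell from 32.7 ± 13.0 to 11.2 ± 4.36 CPM (SD, n = 3), a change of −1.55 on the log2 scale (edgeR adjusted p = 0.0336), and was called in 2 of 6 fits without 1 library, which were those without 0 h replicate 3 and without 6 h replicate 1. Among GADD45 partners and the kinases downstream of them, 6 of 9 genes could be tested and 1 was an upregulated DEG (4.53% of all tested genes). Map2k3, which activates p38, rose from 36.04 ± 8.31 to 137 ± 17.6 CPM (SD, n = 3), a change of 1.93 on the log2 scale (edgeR adjusted p = 0.000431), and was a DEG in all 6 fits without 1 library. Of these 6 genes, 3 were higher and 3 lower in all 6 h libraries than in all 0 h libraries (15.3% of all tested genes in each direction), with a median log2 fold change of −0.04. In the FOXO and quiescence list, 8 of 14 genes could be tested (median log2 fold change 0.22) and 1, Klf6, was an upregulated DEG (4.53% of all tested genes), with 108 ± 49.2 and 407 ± 165 CPM (SD, n = 3; log2 fold change 1.92, edgeR adjusted p = 0.0365). Klf6 was called in 1 of 6 fits without 1 library, namely that without 0 h replicate 1. It was also not called without a filter on low counts or with a replicate block. When tested against a fold change of 2, Sfn and Map2k3 were the only genes of these 9 lists that were called.

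**Figure D5:**
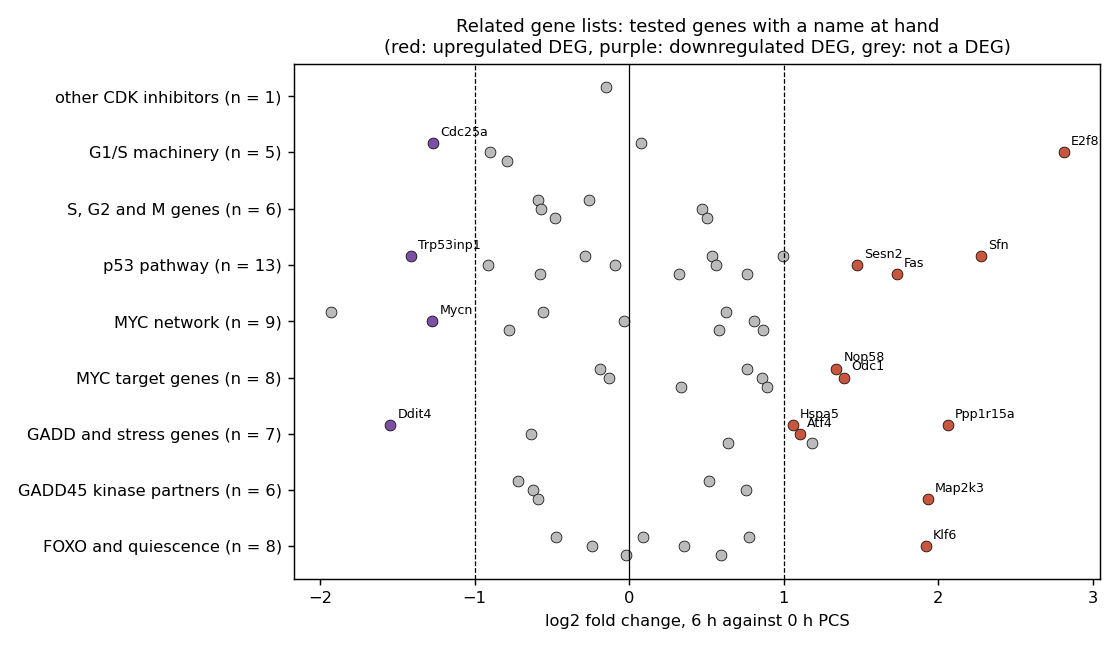
Log2 fold change (horizontal) of each tested gene with a name at hand in 9 lists around the set, with n the number tested, red for upregulated DEGs, purple for downregulated DEGs and grey for the rest, and dashed lines at the 2-fold limits. E2f8 at 2.81 lies farthest to the right, and the 6 tested genes of S, G2 and M phase lie between the limits.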

How the data were processed

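RNAseq of LECs on lens capsules was analysed in 6 libraries, 3 at 0 h PCS and 3 at 6 h PCS, grouped by the sample titles. According to the methods and labels, the authors prepared ribodepleted libraries with a stranded Takara kit, mapped the read pairs with HISAT2 (GRCm38) and used HTSeq (union) to count them on Ensembl genes, and they deposited these raw counts. HTSeq summary rows were left out, and gene counts were 33.6% to 41.2% of all pairs in a file.

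Counts were filtered with filterByExpr, scaled with TMM and tested with the quasi-likelihood F-test of edgeR 4.0.16 (earlier method, robust dispersions), with limma 3.58.1 and R 4.3.3. DESeq2 1.42.0 was an alternative. The SE is the absolute log2 fold change divided by the square root of F. FPKM used total gene counts and union-exon lengths from the supplementary tables, at hand for 8 of the 10 genes. Symbols came from the same tables, which were read in part and name 6373 of 16810 tested genes, and from the rule that defines the set. Coordinates are from RefSeq on GRCm38.p6. The fit was tested on simulated data. Named list genes were DEGs, or other polo-like kinases, CDK inhibitors or MDM2, and the single marker genes named were chosen after their values were seen. The genes, lists and tests were chosen with earlier results of these data known. The methods describe each library as a pool of 5 animals, so p-values measure the spread between pools.

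The alternatives were DESeq2, the edgeR exact test, no robust estimation, the newer quasi-likelihood method of edgeR, library size scaling, DESeq2 size factors, no filter, at least 10 counts in every library, a replicate block, glmTreat against 2-fold, FPKM on TMM effective sizes, and each library left out.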

Additional observations from a re-analysis of the deposited data

How the results depend on the processing

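Of the 10 genes, between 5 and 7 were upregulated DEGs over the 16 other fits, with 5 only under the test against a fold change of 2, where Cdkn1a was lost (edgeR adjusted p = 0.0628), and 7 under DESeq2, the edgeR exact test and no robust estimation, which called Myc. The number of downregulated DEGs among them was 1 with library size scaling (Cdkn1b) and 0 in the other fits. Over all genes, 221 DEGs were left by the test against a fold change of 2, and the fits without 1 library gave 550 to 856. In the lists, that test left 1 DEG among the p53 genes (Sfn), 1 among GADD45 partners and kinases (Map2k3) and 0 in the others, where edgeR at the usual limits had found 4 and 1. Library size scaling gave 3 in the G1/S list in place of 2, 2 in the MYC network, 2 among the stress genes and 2 among GADD45 partners and kinases, and the FOXO and quiescence list had 0 without a filter or with a replicate block. Over the fits without 1 library the counts were 0 to 1 (G1/S), 2 to 4 (p53), 1 to 2 (MYC network), 2 to 4 (stress genes) and 0 to 1 (FOXO and quiescence). Ccnd2 changed sign without 6 h replicate 1, with log2 fold changes from −0.23 to 0.063 over the fits without 1 library, and Cdkn2c without 0 h replicate 1, from −0.32 to 0.013. The causes were not tested. Whether libraries with the same replicate number share mice is not known, and the numbers were not taken as pairs: deviations of same-numbered libraries from their group means correlated at 0.0037, 0.223 and 0.139, and the libraries of replicates 2 and 3, but not those of replicate 1, correlated best with their own number. With a replicate block, there were 1050 DEGs over all genes and 6 upregulated DEGs among the 10 genes, and among the genes named Klf6 alone lost its call. With 3 libraries per time point, the interval of Myc spans 0.78 to 3.61 on the log2 scale.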
